A study of Mus musculus with 3 samples.

Results

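The genes described here are 10 transcripts that mark the trophectoderm, the outer epithelium of the blastocyst, and the placental cells that descend from it: the simple-epithelial keratin genes Krt7, Krt8, Krt18 and Krt19, and the placental genes Plac1, Plet1, Cited1, Esx1, Dlx3 and Tpbpa. Their probes were found by the gene name, accession or synonym of each non-control probe. The rule used no measured value, but the genes were put forward with earlier results of these data known. The arrays named 27670 genes in all and carried 13 probes for these 10 among 41174 probes, and 8 of the 10 genes passed the filter on dim signals and were among the 17728 genes tested. RNA of embryonic stem (ES) cells of the mouse was hybridised to 3 Agilent arrays of 1 colour (Cy3). The Tet1 KO group held 2 samples, KO 4 and KO 22, and the Tet1 WT group held 1. TET1 is an enzyme that oxidises 5-methylcytosine in DNA. All 3 samples carried the label of the V6.5 line, on a mixed background of 129 and C57BL6, and were kept on irradiated feeders in medium with leukaemia inhibitory factor. RNA was taken after preplating, a step in which feeder cells attach and are left behind. How the Tet1 allele was disrupted, and whether KO 4 and KO 22 were clones or cultures of their own, is not stated in the labels, and the design text of the series speaks of mice. With nothing to say that the knockout samples were separate cultures, p-values reflect no more than the spread between these samples, and that spread may be technical.

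Keratins form the intermediate filaments of epithelia, and a filament needs a type I (acidic) and a type II (basic) keratin in equal parts. Krt8, of type II, and Krt18, of type I, are the pair that the trophectoderm lays down as the first epithelium of the mouse embryo, and Krt7 and Krt19 join them there and in the placenta. ES cells derive from the inner cell mass and rarely enter the trophoblast lineage. The placental genes act later: Plac1, Esx1, Dlx3 and Cited1 serve growth and layering of the placenta, Plet1 marks trophoblast progenitors, and Tpbpa marks the spongiotrophoblast.

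Levels are processed spot intensities in arbitrary scanner units, and log2 levels are relative to the 75th percentile of each array, which was 717.7 on KO 4, 644.9 on KO 22 and 623.7 on WT. By the flags of the scanner software, 62.2% to 62.8% of 43379 non-control spots per array stood well above background, and 0 were saturated. Probes with at least 5 spots well above background within an array (176 to 180 per array) had a median SD of 0.06 to 0.07 on the log2 scale. The 90th percentile of that SD was 0.16 to 0.19. Both describe the technical error of those probes within an array, and spots not well above background were left out. The arrays shared 1 slide and 1 scan, so neither differed between the groups, and their number limits the precision. The Tet1 probe gave 213.8 on KO 4 and 195.4 on KO 22, against 720.9 on WT (log2 difference -1.94 ± 0.09, limma adjusted p = 0.0531). Its place relative to the disrupted part of the gene is not known here, so it may check neither the labels nor the deletion. The pluripotency gene Pou5f1 gave 21200 and 18958 on the KO arrays and 25371 on WT. Differences are Tet1 KO minus Tet1 WT on the log2 scale, with the standard error from limma (n = 2 against 1). No spread of wild type was measured: the lone WT array is assumed to vary like the KO arrays. Each error also draws on a prior spread (SD 0.09) shared by all genes.

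All 8 tested genes were higher on both KO arrays than on the WT array, by 0.35 to 1.47 on the log2 scale (1.27-fold to 2.76-fold). Among all 17728 genes tested, 38% were higher and 45.5% lower on both KO arrays. The median of the 8 differences was 0.81, against -0.03 over all genes tested. In each of the 8 genes the nearer KO array lay farther from WT than the KO arrays lay from each other, an order that 26.1% of all genes tested had with the KO arrays higher. Only Cited1 was at least 2-fold higher on both KO arrays, which held for 1.44% of all genes tested, while 1.56% were at least 2-fold lower. Limma called 0 of the 8 genes at an adjusted p below 0.05, where it called 0.0338% of all genes as higher and 0.322% as lower. At an unadjusted p below 0.05, 6 of the 8 were higher, beside 13.2% of all genes tested. The outcome of the test depended on the processing, the variance model and the filter. Under quantile normalization, with probes averaged and without a filter, limma again called 0 of the 8. Of all genes tested it then called 5, 6 and 0 as higher. An intensity trend in the variance called 6 of the 8 as higher (8.24% of all genes tested), the authors' series matrix values called 4 (2.83%), and a filter requiring a signal above background on all 3 arrays called 4 (3.02%). Normexp background correction, which models the background of each array, called 7 where spots far below background were left out (7.67%).

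**Figure D1:**
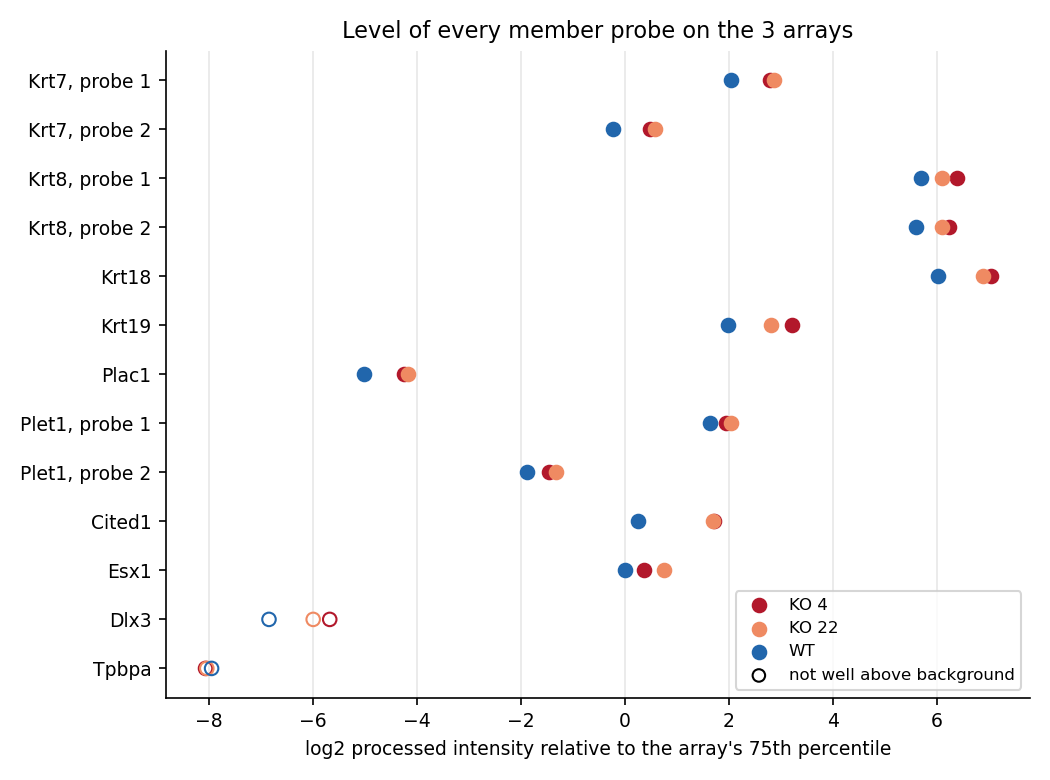
Log2 processed intensity relative to the 75th percentile of the array (horizontal axis) for the 13 probes (rows) on KO 4, KO 22 and WT. Open circles mark spots not well above background. On each of the 11 probes above background both KO arrays lie to the right of WT. Levels of different probes are not comparable with each other.

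Krt18, which encodes the type I partner of keratin 8, read 94048 on KO 4 and 76922 on KO 22, against 40731 on WT. Both KO arrays were higher and the groups did not overlap. The difference was 0.94 ± 0.11 (1.91-fold, limma adjusted p = 0.101, 95% interval 0.59 to 1.29). Its type II partner Krt8 was measured with 2 probes. The first read 60561 on KO 4 and 43998 on KO 22, against 32532 on WT. The second read 54265 and 44174 on the KO arrays, against 30442 on WT. Both probes placed KO 4 highest and WT lowest, with mean differences of 0.54 and 0.56. For the first, which represents the gene in the test, the error was 0.18 and the limma adjusted p was 0.184, and the 95% interval of -0.02 to 1.10 includes no difference.

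Krt19, a type I keratin that lacks most of the tail domain, gave 6624 on KO 4 and 4555 on KO 22, against 2463 on WT. It stood at 1.03 ± 0.21 (2.04-fold, limma adjusted p = 0.124), with 1.22 on KO 4 and 0.84 on KO 22. Krt7, a type II keratin, was also measured with 2 probes. The first read 4938 on KO 4 and 4734 on KO 22, against 2553 on WT, and the second read 997.7 and 957.2 on the KO arrays, against 529.3 on WT. The probes gave 0.80 and 0.76, and the first had an error of 0.10 and a limma adjusted p of 0.101. Of the keratins, Krt7 was the one with KO 22 above KO 4, by 0.09. Krt8, Krt18 and Krt19 were higher on KO 4 than on KO 22, by 0.31, 0.14 and 0.39. Fibroblast markers moved the same way between those arrays, with a median difference from WT of 0.62 on KO 4 and -0.08 on KO 22, and their part in the keratin levels was not tested. In bulk RNA, more cells of a type and more RNA per cell cannot be told apart.

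**Figure D2:**
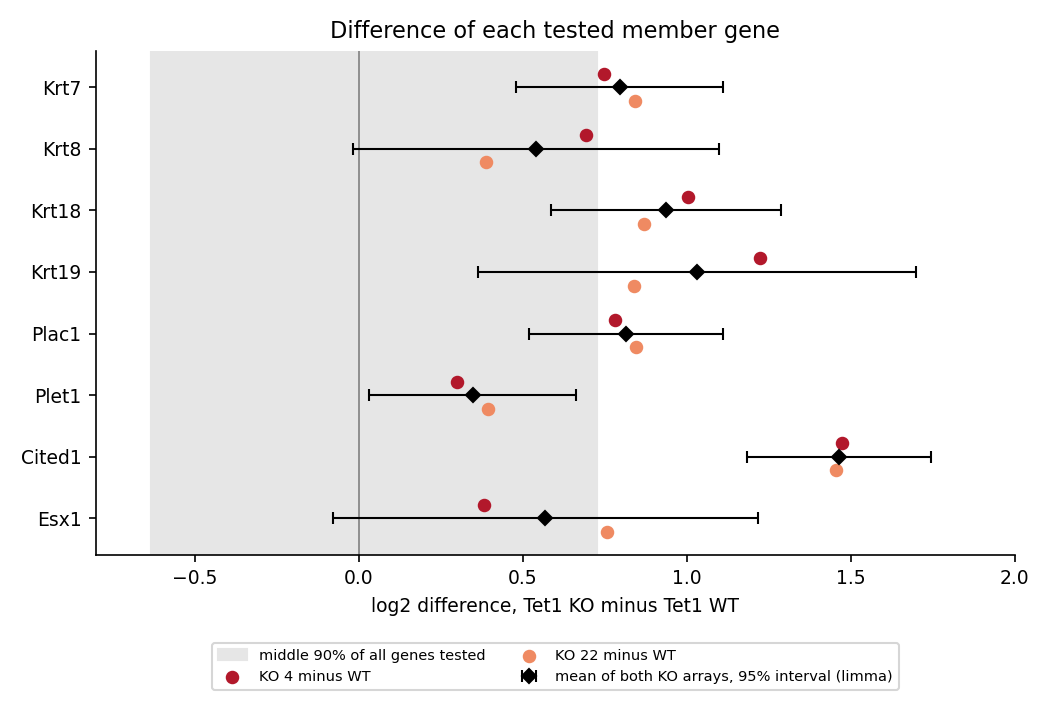
Log2 difference from WT (horizontal axis) of the 8 tested genes (rows) on KO 4 and KO 22, with their mean and the 95% interval from limma. The grey band holds the middle 90% of all 17728 genes tested, from -0.63 to 0.73. The means of Krt7, Krt18, Krt19, Plac1 and Cited1 lie above it, and those of Krt8, Plet1 and Esx1 inside it.

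Per the file, the probes of the keratins lie on build mm7 at chromosome 15, from 101409444 to 101409503 and from 101413898 to 101413957 for Krt7, from 101982940 to 101982999 and from 101983072 to 101983131 for Krt8, and from 102018067 to 102018126 for Krt18. The Krt19 probe lies on chromosome 11, from 100250117 to 100250176. No exon annotation of that build was used here. In the reference gene table (GRCm38.p6), Krt8 and Krt18 are neighbouring keratin genes at one end of the chromosome 15 cluster, and Krt7 stands near the other end. Of the 23 other keratin genes of that cluster 18 had a probe, and 10 of the 18 were not well above background on any array. The 8 tested ones split into 2 higher and 5 lower on both KO arrays. All 8 were dim, at 60.8 or less on every array, and 2 of them, Krt71 and Krt84, were above background on only some arrays. Krt78, the neighbour of Krt8 on its other side, read 23.3 on KO 4 and 29.0 on KO 22, against 13.5 on WT. Krt79, next along, read 26.3 and 34.4 on the KO arrays, against 60.8 on WT. Values along the cluster thus ran in both directions from one gene to the next, though those of the 8 other genes rest on dim signals. In the chromosome 11 cluster, 23 of the 26 other keratin genes had a probe, and 12 of the 23 were not well above background on any array. Of the 11 tested, 5 were higher and 3 lower on both KO arrays. Krt15, the neighbour of Krt19 on one side, stood at 0.58 ± 0.15 (limma adjusted p = 0.146) but at -1.48 with normexp with all spots kept, and Krt9, on the other, differed in sign between the KO arrays. These clusters were set out after the values were seen, and limma called 0 of their tested genes.

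**Figure D3:**
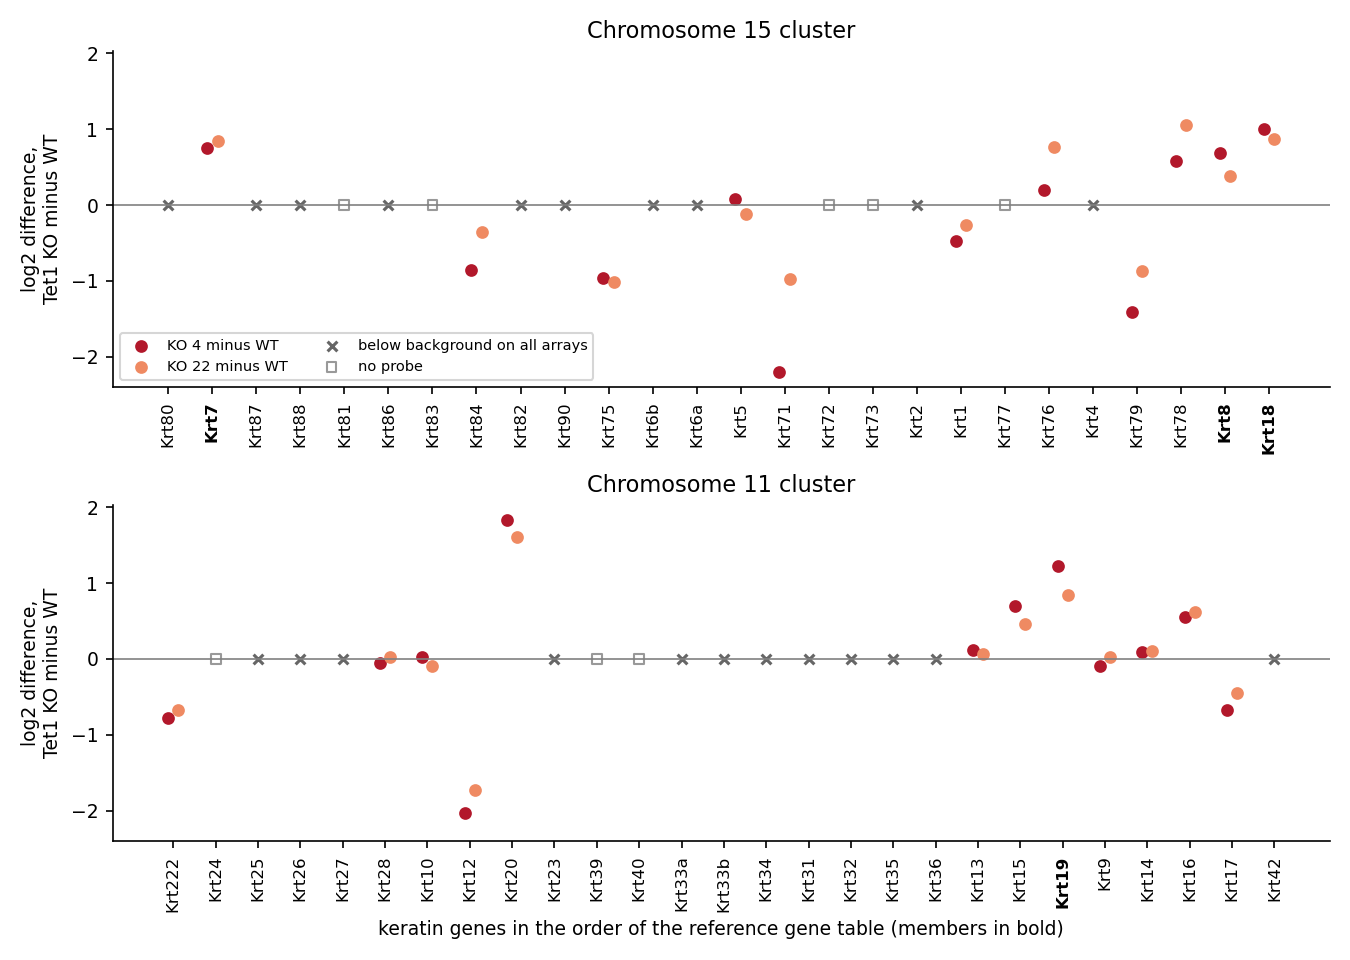
Log2 difference from WT (vertical axis) on KO 4 and KO 22 for the keratin genes of chromosomes 15 and 11, in the order of the reference table (horizontal axis, not to scale). Crosses stand for genes below background on all 3 arrays and open squares for genes with no probe, both drawn at 0 with no value. Krt7, Krt8, Krt18 and Krt19, in bold, have both points above 0, while Krt75, Krt79 and Krt17 have both below.

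Since TET1 acts on methylated CG dinucleotides, promoters are printed here for Krt7, Krt8 and Krt18, the keratins on chromosome 15 among the 10 genes. Each is 300 bases, from 250 before to 50 after the start in the RefSeq table of build GRCm38.p6, with every CG in capitals. DNA methylation was not measured in this series. The table held promoters for 8 of the 10 genes. The Krt7 promoter spans chr15:101412153-101412452 on the plus strand, that of Krt8 spans chr15:102004293-102004592 on the minus strand, and that of Krt18 spans chr15:102027966-102028265 on the plus strand.
Krt7: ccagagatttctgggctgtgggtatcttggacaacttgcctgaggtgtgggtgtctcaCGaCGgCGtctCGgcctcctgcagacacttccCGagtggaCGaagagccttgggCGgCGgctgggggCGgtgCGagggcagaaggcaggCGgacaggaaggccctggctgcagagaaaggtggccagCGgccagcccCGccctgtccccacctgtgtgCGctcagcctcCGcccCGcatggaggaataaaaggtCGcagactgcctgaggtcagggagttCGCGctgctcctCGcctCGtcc
Krt8: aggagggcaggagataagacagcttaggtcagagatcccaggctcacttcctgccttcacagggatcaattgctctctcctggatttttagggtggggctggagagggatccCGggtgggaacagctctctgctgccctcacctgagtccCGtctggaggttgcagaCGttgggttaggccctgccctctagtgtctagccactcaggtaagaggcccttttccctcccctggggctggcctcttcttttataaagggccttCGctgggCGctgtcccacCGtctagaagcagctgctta
Krt18: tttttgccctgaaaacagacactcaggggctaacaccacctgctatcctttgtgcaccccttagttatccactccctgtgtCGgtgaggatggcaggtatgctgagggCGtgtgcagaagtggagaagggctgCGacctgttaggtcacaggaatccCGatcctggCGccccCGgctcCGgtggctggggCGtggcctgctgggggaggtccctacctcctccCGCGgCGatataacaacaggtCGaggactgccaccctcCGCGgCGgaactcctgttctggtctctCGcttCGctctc
They hold 21, 6 and 17 CG dinucleotides, where the median over all 32851 promoters of the table was 7, with quartiles of 3 and 20. The Krt8 promoter holds TATAAA, the TATA box, on both strands in overlapping matches, and neither of the others does. The Krt7 promoter holds GGGCGG, the GC box, 4 times counted over both strands, and the other promoters hold none. GCCNNNGGC, the form bound by AP-2 factors, stands 2 times in the Krt7 and 1 time in the Krt18 promoter. Over all promoters of that length, 13.6% hold TATAAA, 35.7% GGGCGG and 16.6% GCCNNNGGC. None of these motifs stands in all 3 promoters.

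Cited1, which encodes a cofactor that binds CBP and p300 and is needed in the spongiotrophoblast layer, differed most of the 8 on each KO array in the values as reported. It read 2367 on KO 4 and 2101 on KO 22, against 740.4 on WT. The KO arrays were nearly alike, 0.02 apart on the log2 scale, and far above WT. The difference was 1.47 ± 0.09 (2.76-fold, limma adjusted p = 0.0717), above 99.2% of all genes tested. Its adjusted p was 0.0309 where a signal on all 3 arrays was required, 0.0193 in the series matrix values and 0.17 without a filter. The probe lies on chromosome X from 97574905 to 97574964 on build mm7. RefSeq gives 3 starts for the gene, and the outermost, chrX:102252132-102252431 on the minus strand, is printed because Cited1 differed most.
Cited1: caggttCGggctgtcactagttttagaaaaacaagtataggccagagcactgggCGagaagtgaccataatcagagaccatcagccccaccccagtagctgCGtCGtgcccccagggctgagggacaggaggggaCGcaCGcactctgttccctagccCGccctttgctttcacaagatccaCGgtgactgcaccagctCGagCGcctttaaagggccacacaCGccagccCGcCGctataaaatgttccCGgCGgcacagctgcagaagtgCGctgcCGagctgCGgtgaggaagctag
It holds 18 CG dinucleotides, 1 TATAAA and 1 GGGCGG. The windows at the other starts hold 14 and 32 CG dinucleotides.

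Plac1 encodes a protein of the trophoblast surface that placental growth requires. Its probe lies on chromosome X from 48162756 to 48162815 on build mm7. The signal was dim, at 37.8 on KO 4 and 35.5 on KO 22, against 19.1 on WT, though well above background on every array. The scanner software gave these spots errors of 4.62, 4.34 and 3.10 units. The error of Cited1 was 237 units on KO 4 and 210.1 on KO 22, against 74.1 on WT. Cited1 was far brighter, at 2367, 2101 and 740.4 units. Errors in units rose with brightness and do not rank the precision of the 2 genes. The lowest intensity well above background was 11.3 on KO 4, 9.86 on KO 22 and 9.75 on WT. Plac1 stood at 0.81 ± 0.09 (1.76-fold, limma adjusted p = 0.1), but this value depended on how background was removed. It was 0.57 in the series matrix values and 0.09 with normexp background correction with spots far below background left out. With all spots kept, it turned to -1.70.

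**Figure D4:**
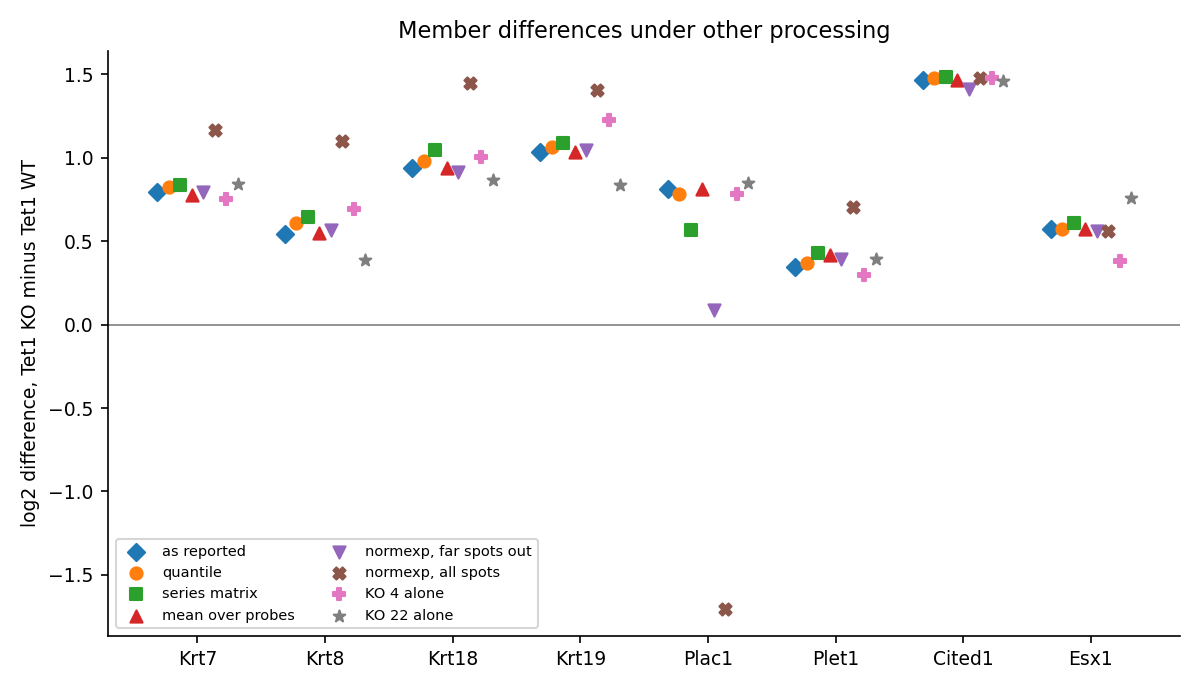
Log2 difference of Tet1 KO from Tet1 WT (vertical axis) of the 8 tested genes (horizontal axis) as reported, under other normalization or background correction, with probes averaged, and with either KO array alone. Filters and the variance model leave these values as they are. Cited1 lies between 1.41 and 1.48 throughout, and Plac1 spreads from -1.70 to 0.85.

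Esx1, a homeobox gene of the labyrinth with a probe on chromosome X from 131834651 to 131834710, read 931.7 on KO 4 and 1084 on KO 22, against 620.7 on WT. Both KO arrays were higher, but 0.37 apart from each other, and the difference of 0.57 ± 0.21 did not pass (1.48-fold, limma adjusted p = 0.205, 95% interval -0.08 to 1.22). Plet1, a surface protein gene of trophoblast progenitors that the arrays list under its older name 1600029D21Rik, was measured with 2 probes on chromosome 9, from 50483584 to 50483643 and from 50477771 to 50477830. The brighter read 2755 on KO 4 and 2645 on KO 22, against 1945 on WT, and the dimmer read 259.4 and 256.9 on the KO arrays, against 169.5 on WT. The brighter gave 0.35 ± 0.10 (1.27-fold, limma adjusted p = 0.163), and the dimmer gave 0.48.

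Plac1, Cited1 and Esx1 lie on chromosome X. Over the 490 X-linked genes tested, the median difference was -0.04, as it was over the 14179 autosomal ones, and 36.5% and 36.4% of them were higher on both KO arrays. At least 2-fold higher on both were 2.24% of the X-linked and 1.25% of the autosomal genes. The Y-linked gene Eif2s3y read 17.3 on KO 4 and 19.8 on KO 22, against 842.0 on WT, and Ddx3y was not well above background on either KO array. The Y-linked signal thus moved with the genotype, and its part in the values of X-linked genes was not tested.

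The remaining genes gave no usable difference. Dlx3, a homeobox gene needed for the labyrinth, read 14.0 on KO 4 and 10.1 on KO 22, against 5.41 on WT, and was not well above background on any array. Its probe lies on chromosome 11 from 95233486 to 95233545. Tpbpa, which marks the spongiotrophoblast and the ectoplacental cone from which it grows, read 2.67 on KO 4 and 2.44 on KO 22, against 2.52 on WT, and each of these values was a surrogate set by the scanner software for a spot without signal. Its probe lies on chromosome 13 from 60046780 to 60046839. The Tpbpa promoter, chr13:60941887-60942186 on the minus strand, is printed as that of a placental gene without signal.
Tpbpa: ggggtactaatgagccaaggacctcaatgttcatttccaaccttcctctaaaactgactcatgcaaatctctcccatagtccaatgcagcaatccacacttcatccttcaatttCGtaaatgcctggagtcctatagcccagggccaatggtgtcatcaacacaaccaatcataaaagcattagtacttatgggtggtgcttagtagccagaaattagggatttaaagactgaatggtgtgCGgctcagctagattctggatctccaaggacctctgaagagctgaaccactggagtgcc
It holds 2 CG dinucleotides, fewer than any other promoter of the 8 genes in the table, and 1 match each of GCCNNNGGC, TTTATG, a form bound by CDX2, and TGANTCA, the AP-1 site, which 11.9% and 7.81% of all promoters hold for the last 2 motifs. Over the 11 promoters of the 8 genes, 4 hold TATAAA, 3 GGGCGG, 4 GCCNNNGGC, 3 TGANTCA and 1 TTTATG. None holds GGAATG, a TEAD site that 14.7% of all promoters hold, which says only that these letters are not in these windows.

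Regulators of the trophoblast lineage were examined beside these genes. Of all 17728 genes tested, 38% were higher and 45.5% lower on both KO arrays. Under 0.05 before adjustment in limma, 2345 of the 17728 were higher and 2646 lower. Of 20 trophoblast regulators 18 were tested, 12 were higher and 5 lower on both KO arrays, with a median of 0.27, and limma called 0, with 8 higher and 2 lower genes under 0.05 before adjustment. The largest differences were those of Eomes, a T-box gene of trophoblast stem cells (1.27 ± 0.13, limma adjusted p = 0.097), Hand1, which drives giant cell formation (1.25 ± 0.16), and the growth factor gene Bmp4 (1.06 ± 0.10). Eomes and Hand1 turned to -0.75 and -1.38 with normexp with all spots kept. The 2 lower genes under 0.05 before adjustment were Esrrb (-0.47 ± 0.09) and Ascl2 (-0.45 ± 0.09). Esrrb stood at 0.08 with normexp with all spots kept. Elf5 and Gcm1, regulators of trophoblast stem cells and of syncytiotrophoblast, were not well above background on any array. Of 26 other placental genes 22 had a probe, and 8 of these were not well above background on any array, among them the prolactin-family genes Prl4a1, Prl7d1 and Prl8a9, the cathepsin genes Ctsj, Ctsm and Ctsq, and Synb, an envelope gene of the syncytiotrophoblast. Of the 14 tested, 9 were higher and 4 lower on both KO arrays, with a median of 0.31 and 0 calls by limma (5 higher and 1 lower genes under 0.05 before adjustment). The growth factor gene Igf2 stood at 2.21 ± 0.12 and the X-linked homeobox genes Rhox6 and Rhox9 at 1.82 ± 0.20 and 1.42 ± 0.18. Phlda2, the 1 lower gene under 0.05 before adjustment, stood at -0.39 ± 0.09. It was bright, at 28873 on KO 4 and 26010 on KO 22, against 32844 on WT.

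Other keratins and the junctions that anchor keratin filaments were examined beside them. The shares over all 17728 genes tested were again 38% higher and 45.5% lower on both KO arrays. Before adjustment, limma placed 2345 of the 17728 under 0.05 as higher and 2646 as lower. The hand-picked list of 14 other keratins leaves out part of the clusters above, among them Krt12, Krt71, Krt75 and Krt79, which were lower on both KO arrays. Of its 8 tested genes, 5 were higher and 1 lower on both KO arrays, with a median of 0.10 (0 called by limma, 3 higher and 1 lower genes under 0.05 before adjustment). These counts changed to 4 higher and 3 lower with probes averaged. They were 1 higher and 6 lower with normexp with all spots kept. Krt20, an intestinal type I keratin, read 190.2 on KO 4 and 146.7 on KO 22, against 46.3 on WT, and stood at 1.72 ± 0.14 (limma adjusted p = 0.091), though at -0.54 with normexp with all spots kept. Of 18 genes of desmosomes, tight junctions and their partners, 12 were higher and 4 lower, with a median of 0.18 (0 called by limma, 5 higher and 0 lower genes under 0.05 before adjustment). Ocln, of tight junctions, and the desmosomal cadherin genes Dsg2 and Dsc2 stood at 0.90 ± 0.10, 0.81 ± 0.11 and 0.73 ± 0.12. With normexp with all spots kept, Ocln and Dsc2 turned to -0.30 and -1.23, and Dsg2 stood at 0.23. With probes averaged, Ocln, Dsg2 and Dsc2 stood at 0.66, 0.45 and 0.89.

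Simple keratins are also made by other cells, so markers of such cells are given beside them. Over all 17728 genes tested, 38% were higher and 45.5% lower on both KO arrays. Before adjustment, 2345 of the 17728 (13.2%) were higher and 2646 lower under 0.05 in limma. Surface ectoderm markers summed to 68.5 and 64.6 times the 75th percentile on the KO arrays, against 56.0 on WT. Without Sfn, left out after its values were seen, they summed to 18.5 on KO 4 and 17.9 on KO 22, against 14.1 on WT. Of the 9 tested, 6 were higher and 2 lower on both KO arrays (median 0.12, 0 called by limma, 3 higher and 1 lower genes under 0.05 before adjustment). The largest differences were those of Perp (0.97 ± 0.13), Krt15 (0.58 ± 0.15, but -1.48 with normexp with all spots kept) and Itgb4 (0.57 ± 0.09). Krt17 and Tfap2a were the 2 lower ones. The defining regulator Trp63 and the cadherin gene Dsg3 were not well above background on any array. Primitive endoderm markers summed to 20.3 and 19.5, against 24.4 on WT. Of the 18 tested, 3 were higher and 14 lower (median -0.78, with 1 higher and 13 lower genes under 0.05 before adjustment). Limma called 2 as lower, Cubn (-3.46 ± 0.11, limma adjusted p = 0.0347) and Srgn (-3.44 ± 0.14, limma adjusted p = 0.0443). Afp and Ttr, products of the visceral endoderm, were not well above background on any array. Fibroblast markers, for the feeder cells, summed to 76.7 on KO 4 and 60.5 on KO 22, against 53.2 on WT. Without Tagln, a gene of contractile cells left out after its values were seen, they summed to 49.4 on KO 4 and 41.9 on KO 22, against 45.0 on WT. Of the 22 tested, 7 were higher and 4 lower on both KO arrays (median 0.23, 0 called by limma, 3 higher and 1 lower genes under 0.05 before adjustment). All 22 were well above background on every array, Tagln being the largest at 1.47 ± 0.29. Pluripotency markers summed to 847.0 and 969.6, against 909.7 on WT, and 5 of 15 were higher and 8 lower (median -0.04, 0 called by limma, 2 higher and 4 lower genes under 0.05 before adjustment). These sums have the order of Dppa5a, by far the brightest of the 15, at log2 levels of 8.87 on KO 4, 9.21 on KO 22 and 9.07 on WT. With normexp with all spots kept, 14 of the 15 were higher and 0 lower on both KO arrays. Of all 17728 genes, 7127 were then higher and 9862 lower on both. The part of other cell types in the keratin levels was not tested.

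**Figure D5:**
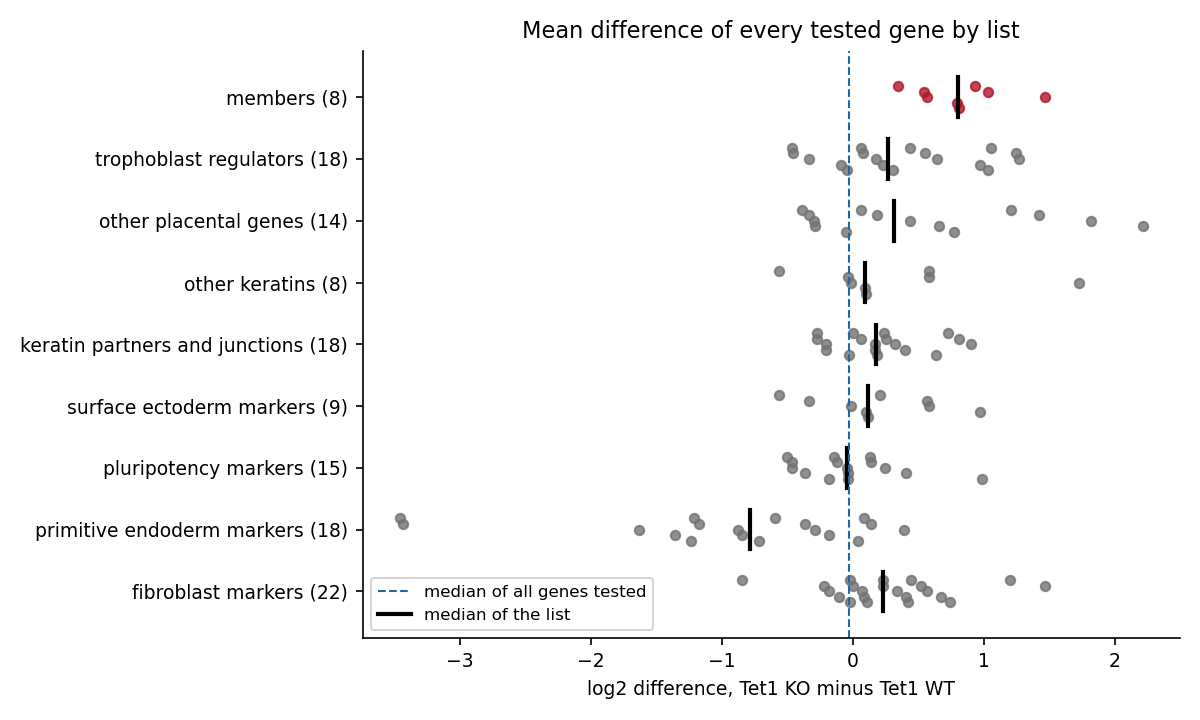
Mean log2 difference of Tet1 KO from Tet1 WT (horizontal axis) for every tested gene of each list (rows, number tested in brackets), with the list median as a bar and the median of all genes tested, -0.03, as a dashed line. The 8 genes described here (top row) all lie above 0, from 0.35 to 1.47, while every other list holds genes on both sides.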

How the data were processed

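Per the file headers, the deposited files of each array hold intensity values from Agilent Feature Extraction 10.1.1.1, background-subtracted and detrended within each array, with surrogates for dim spots and no scaling between arrays. The deposited series matrix holds log2 values, made by the authors with limma per the submitters' processing notes. Its 3 columns share 1 median (5.52), minimum and maximum and correlate with the log2 mean spot intensity at 0.991 to 0.993, so its scale is log2. Its background correction stays unknown.

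The log2 processed intensity was scaled to the 75th percentile of each array. Outlier-flagged spots were left out and repeated spots averaged. Of 41174 probes 79.5% were matched to GRCm38.p6 symbols by accession, symbol or synonym. Probes well above background on 1 array or more were tested, the brightest standing for its gene. The comparison used limma 3.58.1 (R 4.3.3), with Benjamini-Hochberg adjustment over all 17728 genes and 3.03 degrees of freedom after moderation. The limma fit alone was tested on simulated data, with spreads drawn from its own prior, so that test cannot check the variance model. Scaling, background handling, spot averaging, filter and probe choice were not simulated. The text names all 10 genes, and from each other list up to 3 genes with the largest difference, above background on all arrays and on the same side of WT on both KO arrays. Lower trophoblast and placental genes under 0.05 before adjustment in limma are named as well, chosen after their values were seen. Members and lists were chosen with earlier results of these data known. Alternatives changed background correction, normalization, filter, variance model, probe choice and samples.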

Additional observations from a re-analysis of the deposited data

How the results depend on the processing

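The 8 tested genes were higher on both KO arrays under quantile normalization, in the series matrix values and with probes averaged. They were also higher under both filters, with normexp without far spots and with either KO array alone. Without a filter 9 of the 10 genes were higher on both KO arrays, Dlx3 included, beside 8041 of all 27654 genes. The exception for the 8 was normexp with all spots, where 7 were higher and Plac1 turned to -1.70. That correction set the median of all genes at -0.21, where it was -0.03 as reported, and called 5215 genes higher and 8652 lower. Of the 8, it called 7 higher and 1 lower, left 4 at least 2-fold higher on both KO arrays and set the median at 1.13. Over all 17728 genes, 104 were then at least 2-fold higher and 5675 at least 2-fold lower on both KO arrays. The WT array held 5 spots more than 100 units dimmer than their background, and each KO array 0. Without those spots limma called 1359 genes higher and 1990 lower and 7 of the 8 as higher, with a median of 0.68. Limma called 6 genes higher and 57 lower in the values as reported. Quantile normalization gave 5 and 47, and averaging of probes 6 and 57 (0 of the 8 in each). The series matrix values gave 501 and 512, the filter on all 3 arrays 496 and 410 (4 of the 8 in each), and an intensity trend 1460 and 1875 (6 of the 8). Without a filter limma called 0 in either direction, with 2587 higher and 3381 lower under 0.05 before adjustment. The number of the 8 at least 2-fold higher was 1 to 3 with either KO array alone, being 3 on KO 4 (Krt18, Krt19 and Cited1), and the median was 0.77 to 0.84. The share of all genes at that size on a KO array alone was not counted. The cause of these changes was otherwise not tested. No paired analysis was possible because the labels give the KO and WT samples no shared replicate number. Signal over background limits Plac1, Dlx3 and Tpbpa.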

Other observations

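The other Cited genes, named after their values were seen, were higher too. Cited4, a cofactor gene of the same family, read 1099 on KO 4 and 1052 on KO 22, against 404.5 on WT with its brighter probe, and 529.3 and 488.1 on the KO arrays, against 187.5 on WT with the other. It stood at 1.28 ± 0.10 (2.44-fold, limma adjusted p = 0.0859). Cited2, which encodes a competitor of hypoxia-inducible factor for CBP and p300, had 4 probes, all higher on both KO arrays, and stood at 0.55 ± 0.09 (1.47-fold, limma adjusted p = 0.108). Neither passed the threshold. Tpbpb, the close relative of Tpbpa, was not well above background on any array.

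Among the keratins of chromosome 11, Krt12, a corneal keratin, was dim and stood at -2.03 on KO 4 and -1.72 on KO 22 relative to WT, with a limma adjusted p of 0.0973. Krt17, a keratin of basal and injured epithelia, read 2101 and 2225 on the KO arrays, against 2925 on WT, with a limma adjusted p of 0.147. Dppa3, a gene of the germline and of naive ES cells, was the pluripotency marker with the largest difference, at 0.99 ± 0.09 (limma adjusted p = 0.0973).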
